A study of Mus musculus with 12 samples.

Results

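The auxiliary subunit genes of voltage-gated calcium channels described here are the beta subunit genes Cacnb1, Cacnb2, Cacnb3 and Cacnb4 and the alpha2delta subunit genes Cacna2d1, Cacna2d2 and Cacna2d3. They were taken by name and make up 7 of the 20504 entries of the table of reads counted on the coding sequence (CDS), in all 12 libraries. The remaining alpha2delta gene, Cacna2d4, is not among them and had 7 to 48 CDS counts per library. All 7 genes passed the filter on low counts in every comparison. Their lowest count in any library was 74.

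The libraries came from the brains of 6 adult (3-month-old) Camk2a-RiboTag mice, which carry a Camk2a-cre allele together with the RiboTag allele of Rpl22. Cre driven by the Camk2a promoter switches the RiboTag allele to a form of the ribosomal protein with a hemagglutinin (HA) tag, mainly in principal excitatory neurons of the forebrain, so that an HA immunoprecipitation (IP) recovers ribosomes of those cells. Mice A and B are labelled untreated, and the methods describe an oral gavage of vehicle. Mice C and D received 100 mg/kg AZD-8055, an ATP-competitive inhibitor of the kinase mTOR, by oral gavage and were killed 1 h later. The right frontal lobe was taken. Each of these 4 mice gave a poly(A) RNA-Seq library and a library of ribosome-protected footprints from the same lysate. Mice E and F, labelled untreated, each gave an RNA-Seq library of the homogenate (input) and one of the HA-IP. Every group held 2 mice, so that each test rests on the spread between 2 libraries per group. The main tests did not pair the libraries of the same mouse.

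High-voltage-activated calcium channels consist of a pore-forming alpha1 subunit, which sets the channel type, and auxiliary subunits that change how much of the channel reaches the membrane and how it gates. Beta subunits are cytosolic proteins that bind an intracellular loop of the pore. Alpha2delta subunits are extracellular proteins held at the membrane, made by cleavage of a single precursor, and they increase the density of channels at the surface and at presynaptic terminals. In the brain both families act in transmitter release, and alpha2delta-1 and alpha2delta-2 bind the drugs gabapentin and pregabalin.

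Total CDS counts lay between 9395385 and 10649939 in the RNA-Seq libraries of mice A to D, between 9309496 and 15585831 in the RiboTag libraries, and between 3503873 and 9259938 in the footprint libraries, of which that of mouse A was the deepest. In their sums the marker lists given here followed the labels, though single markers did not all do so. The summed level of 6 excitatory neuron markers was 4785 and 5113 CPM (counts per 1000000 CDS counts of the library) in the inputs, against 6735 and 7273 CPM in the IPs. By contrast, 5 astrocyte markers summed to 776 to 879 CPM before and 70.6 to 79.9 CPM after the IP, 5 oligodendrocyte markers to 1959 to 2088 CPM before and 146 to 154 CPM after, and 5 inhibitory neuron markers to 947 to 966 CPM before and 144 to 212 CPM after. None of these markers was at 0 in the IPs. By edgeR (adjusted p under 0.05), 4 of the 6 excitatory markers were higher in the IP and 2 lower on CDS counts. The lowest was Camk2a (log2 change −0.66). On exon counts 5 were higher and 0 lower. All 5 genes of each of the astrocyte, oligodendrocyte and inhibitory neuron lists were lower on CDS counts. So were all 3 endothelial and all 3 oligodendrocyte precursor markers, 3 of 4 microglial and 2 of 3 vascular smooth muscle markers. Of 4 striatal projection neuron markers tested, 1 was higher and 1 lower, and Cbln1, the only cerebellar marker tested, was higher. Over all genes 36.5% were higher and 39% lower on CDS counts, and 33.7% and 35.7% on exon counts.

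Cacnb1, Cacnb2 and Cacnb3 varied little in the homogenate, unlike Cacnb4. Over the 6 RNA-Seq libraries of homogenate, from mice A to F, the highest level exceeded the lowest by 1.17-fold for Cacnb1, 1.10-fold for Cacnb2 and 1.18-fold for Cacnb3, but by 1.81-fold for Cacnb4. Cacnb4, the gene mutated in the ataxic and epileptic lethargic mouse, had 80.2 and 86.7 CPM in the inputs of mice E and F and 48.0 to 56.6 CPM in mice A to D. Cacna2d1, the most studied gabapentin receptor, had the same split, with 161 and 174 CPM in mice E and F and 93.9 to 99.3 CPM in mice A to D. Cacna2d2, the gene mutated in the ducky mouse, split the other way, with 71.7 and 71.0 CPM in mice E and F and 89.9 to 111 CPM in mice A to D. With reads counted on whole exons, the highest level exceeded the lowest by 1.42-fold for Cacnb4, 1.44-fold for Cacna2d1 and 1.58-fold for Cacna2d2. On CDS counts these values were 1.81-fold, 1.85-fold and 1.56-fold. The 4 of 5 listed striatal projection neuron markers that were present summed to 438 to 562 CPM in the inputs and 847 to 1037 CPM in mice A to D. Other lists differed as well. Inhibitory neuron markers summed to 947 to 966 and 1157 to 1280 CPM, and excitatory neuron markers to 4785 to 5113 and 4151 to 4570 CPM. Those of astrocytes overlapped, at 776 to 879 and 816 to 911 CPM. Mouse, tissue taken, library preparation and handling cannot be told apart in this split. Cacna2d3, an alpha2delta gene that also acts in synapse growth, ranged from 190 to 255 CPM. CPM are not corrected for length, and levels of different genes are therefore not compared.

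**Figure D1:**
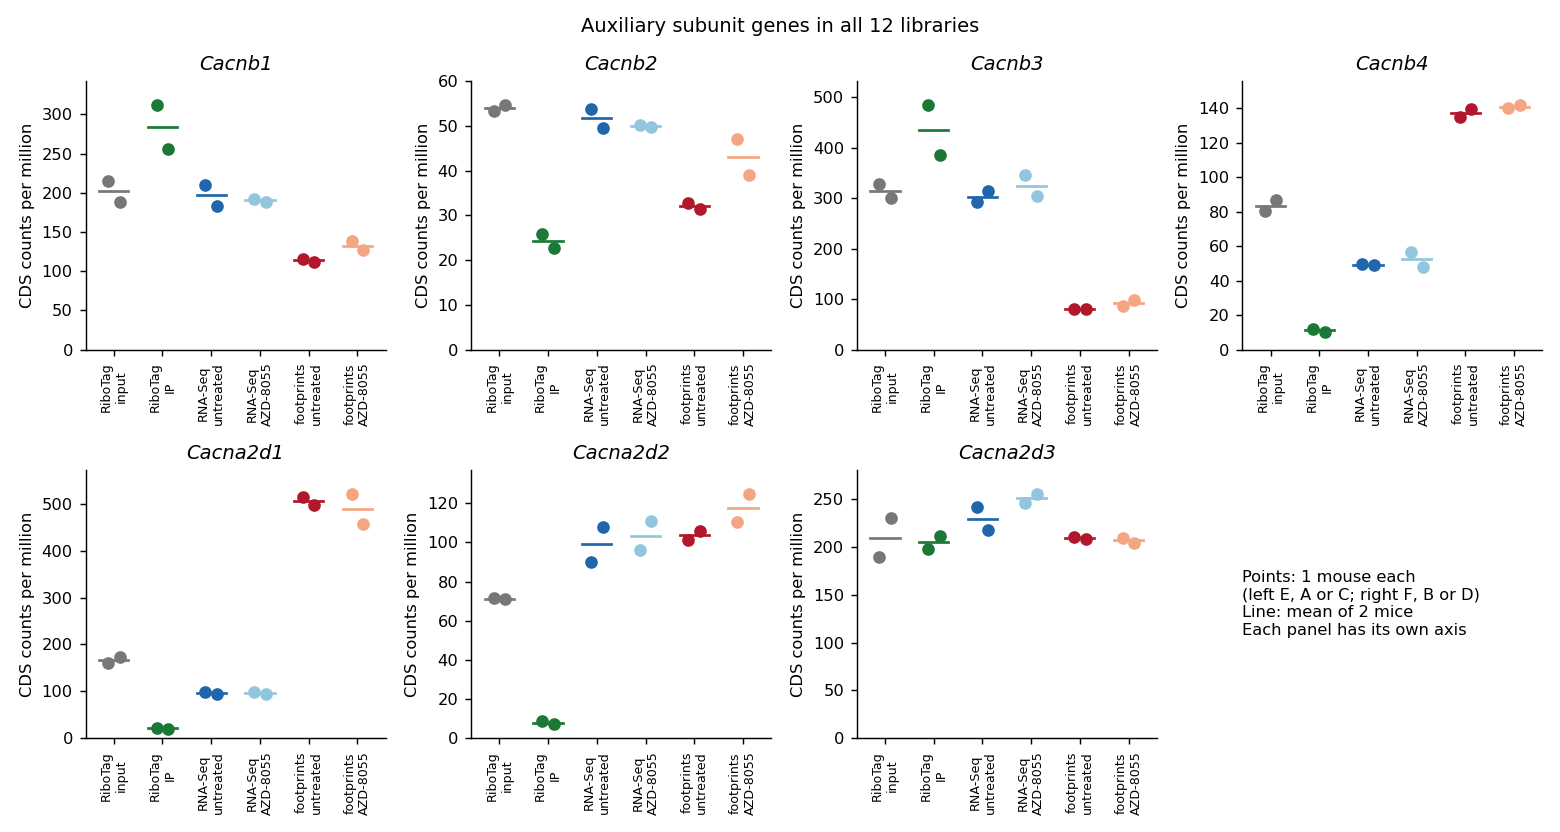
Level of each of the 7 genes in CPM of CDS counts (linear axes from 0, a separate axis for each gene) in the 6 groups of libraries, with a point for each mouse and a line for the mean of 2 mice. Cacnb4, Cacna2d1 and Cacna2d2 lie lowest in the RiboTag IP, while Cacnb1 and Cacnb3 lie highest there and lowest in the footprints.

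The genes lie on separate loci of the GRCm38.p6 assembly, as the RefSeq table places them. Cacnb1 is at chr11:98001508-98023034, where its span overlaps that of Rpl19, and Cacnb3 is at chr15:98628436-98644536 with no overlapping gene. Cacnb2 (chr2:14603861-14988811) and Cacnb4 (chr2:52428320-52676609) share a chromosome. The span of Cacnb2 overlaps those of 6 genes, of which Gm13315 is among the entries counted. Genes that overlap Cacnb4, Cacna2d1 and Cacna2d2 are not among those entries. The alpha2delta genes are Cacna2d1 at chr5:15934264-16374511, Cacna2d2 at chr9:107399733-107529346 and Cacna2d3 at chr14:28904943-29722775, the last overlapping Lrtm1. No source used here states that reads were counted by strand, so that counts of overlapping genes are uncertain.

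The RiboTag IP was compared with the input of the same mice to ask which transcripts are on the ribosomes of Camk2a-expressing neurons. On CDS counts, Cacnb1, Cacnb3 and Cacna2d3 were higher in the IP and Cacnb2, Cacnb4, Cacna2d1 and Cacna2d2 were lower (edgeR quasi-likelihood test, adjusted p under 0.05). Of all 12211 genes tested, 36.5% were called higher and 39% lower, so that 3 and 4 calls among 7 genes are near the background. The size of the decreases was unequal, and 3 of the 4 genes lost the call when reads on whole exons were counted. The values on both tables are therefore given for each gene.

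Cacnb3, a beta subunit of neuronal channels, was the clearest case of a higher level in the IP. It had 327 CPM in input E, 483 CPM in IP E, 300 CPM in input F and 384 CPM in IP F. Both IPs lay above both inputs, and the share of all genes with such a separation was not computed. The log2 change was 0.90 ± 0.13 (SE, adjusted p = 0.000236 in edgeR) on CDS counts, 1.05 ± 0.11 (adjusted p = 0.00032) on exon counts and 1.08 ± 0.11 on exon counts outside the CDS (exon minus CDS counts). These increases were similar with each kind of count normalized on its own. The share of its exon reads on the CDS fell from 57.4% and 56.2% in the inputs to 40.2% and 34.3% in the IPs of mice E and F.

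Cacnb1, the beta subunit known from skeletal muscle and also expressed in neurons, had 215 and 189 CPM in the inputs, against 311 and 256 CPM in the IPs of mice E and F. Its log2 change was 0.93 ± 0.13 (adjusted p = 0.000224) on CDS counts and 0.44 ± 0.16 (adjusted p = 0.0425) on exon counts. Nearly all of its exon reads were on the CDS, 96.7% and 96.8% in the inputs, against 99.0% and 98.5% in the IPs. The few reads outside the CDS moved the other way, from 92 and 98 counts in the inputs to 29 and 38 counts in the IPs, a log2 change of −1.50 ± 0.26 (adjusted p = 0.00136).

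Cacna2d2 was lower in the IP on every count. Its CDS level was 71.7 CPM in input E, 8.59 CPM in IP E, 71.0 CPM in input F and 7.42 CPM in IP F, from 80 and 74 counts in the IPs. After scaling by size factors it was 6.02-fold lower in the IP on CDS counts and 3.59-fold lower on exon counts (means of 2 mice). The log2 changes in edgeR were −2.72 ± 0.16 (adjusted p = 2.59e-06), −1.96 ± 0.10 (adjusted p = 6.56e-05) and, outside the CDS, −1.50 ± 0.13. The summed markers of glia and of inhibitory neurons were also lower in these IPs, as given above, and their part in this result was not tested.

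Cacna2d1 and Cacnb4 were as strongly decreased as Cacna2d2 on CDS counts, but not on exon counts. Cacna2d1 had 2031 and 2706 CDS counts in the inputs, against 202 and 206 in the IPs, a log2 change of −2.55 ± 0.13 (adjusted p = 2.25e-06). Its exon counts were 6174 and 9056 in the inputs, against 4108 and 4879 in the IPs, and the log2 change was −0.23 ± 0.10, which did not pass the test (95% interval −0.46 to 0.0069, adjusted p = 0.0758). With the mouse as a replicate block the exon value was −0.23 and passed (adjusted p = 0.00158).

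Cacnb4 had 1009 and 1352 CDS counts in the inputs against 111 and 103 in the IPs, a log2 change of −2.47 ± 0.15 (adjusted p = 2.96e-06). Its exon counts were 6295 and 10036 in the inputs, against 4761 and 6175 in the IPs. On that table the log2 change was −0.04 ± 0.13 (95% interval −0.35 to 0.27, adjusted p = 0.78). Of the exon counts of Cacnb4, 16.0% and 13.5% were on the CDS in the inputs, and 2.33% and 1.67% in the IPs. For Cacna2d1 these shares were 32.9% and 29.9% in the inputs, against 4.92% and 4.22% in the IPs. The decrease was therefore in the reads on the CDS, while the reads on the rest of the exons changed by −0.34 ± 0.13 (Cacnb4, adjusted p = 0.0419) and −0.25 ± 0.11 (Cacna2d1, adjusted p = 0.0746) on the log2 scale.

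Cacnb2, the main beta subunit of the heart and a lowly counted gene here, had 53.3 and 54.6 CPM in the inputs, against 25.8 and 22.8 CPM in the IPs. Its log2 change was −0.72 ± 0.14 (adjusted p = 0.00134) on CDS counts and 0.00 ± 0.09 on exon counts (95% interval −0.23 to 0.23). The share of exon reads on the CDS fell from 57.3% and 55.2% to 27.1% and 22.7%. The reads outside the CDS changed by 0.28 ± 0.12 (adjusted p = 0.07).

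Cacna2d3 had 190 and 230 CPM in the inputs and 199 and 212 CPM in the IPs, and the IPs lay between the inputs. Its call of higher on CDS counts (log2 change 0.40 ± 0.13, adjusted p = 0.0186) rested on the normalization, since scaling by total counts alone gave −0.04 (adjusted p = 0.802). Under that scaling the median of all genes tested was −0.50, against −0.07 with TMM. On exon counts the change was 0.06 ± 0.11 (adjusted p = 0.66). On exon counts, 2 of the 7 genes were higher (Cacnb1 and Cacnb3) and 1 was lower (Cacna2d2), against 33.7% and 35.7% of all 13254 genes. On reads outside the CDS, 2 were higher (Cacnb3 and Cacna2d3) and 3 lower (Cacnb1, Cacnb4 and Cacna2d2), against 29.1% and 30.5% of 9937 genes.

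**Figure D2:**
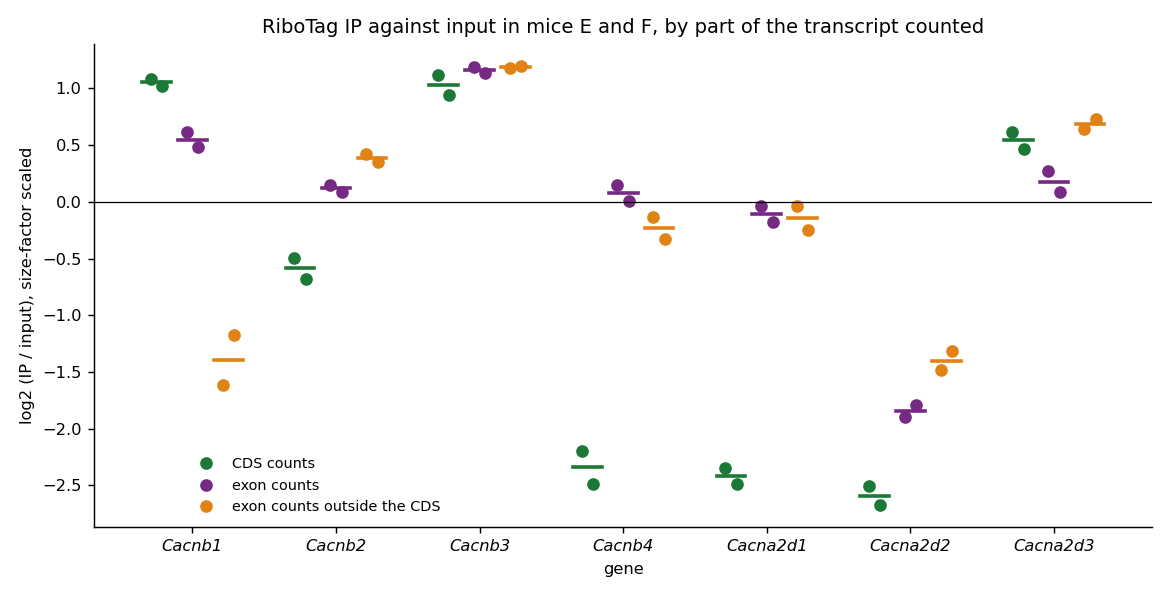
Log2 ratio of IP to input for each gene, after scaling by size factors, on CDS counts, on exon counts and on exon counts outside the CDS, with a point for each of mice E and F and a bar for their mean. For Cacnb4 and Cacna2d1 the CDS values lie near −2.3 to −2.5 while the other values lie near 0, and for Cacnb3 all values lie near 1.

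The difference between the change on the CDS and the change outside it was tested in a model with the library as a block, which was chosen after these values had been seen. It was negative for Cacna2d1 (−2.21 ± 0.12, adjusted p = 4.57e-10), Cacnb4 (−2.05 ± 0.14, adjusted p = 4.66e-09), Cacna2d2 (−1.14 ± 0.17) and Cacnb2 (−0.92 ± 0.13), and positive for Cacnb1 (2.49 ± 0.20, adjusted p = 2.47e-08). Cacnb3 (−0.10 ± 0.11, adjusted p = 0.42) and Cacna2d3 (−0.09 ± 0.13, adjusted p = 0.562) did not pass. Such differences were common, with 26.9% of 9585 genes called positive and 27.9% negative. Within that distribution the values of Cacna2d1 and Cacnb4 lay at the 0.407 and 0.616 percentiles, and that of Cacnb1 at the 99.7 percentile.

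The share of exon reads on the CDS fell in the IP across the libraries as a whole. Over 12574 genes the inputs had a median share of 65.4% (E) and 64.1% (F), the IPs one of 51.3% (E) and 47.5% (F), and 80.2% of these genes had a lower share in the IP of both mice. The genes whose input reads lay mostly outside the CDS had the lower IP values on CDS counts. The median log2 ratio of IP to input on CDS counts was −0.96 over the 502 genes with under 20% of input exon reads on the CDS, −0.43 over the 1809 genes with 20 to 40%, −0.10 over the 2695 genes with 40 to 60%, 0.14 over the 3030 genes with 60 to 80% and 0.51 over the 3820 genes with 80 to 100%. On exon counts the same medians lay between 0.07 and 0.16. The share and the ratio have the input CDS counts in common, and these medians are a description. Cacnb4 (14.5% over both inputs) and Cacna2d1 (31.1%) belonged to the groups with the lowest shares, and their CDS values were below the medians of those groups. Cacnb1 (96.7%) and Cacna2d3 (93.3%) belonged to the group with the highest share. What moved the reads off the CDS in the IP libraries was not tested.

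**Figure D3:**
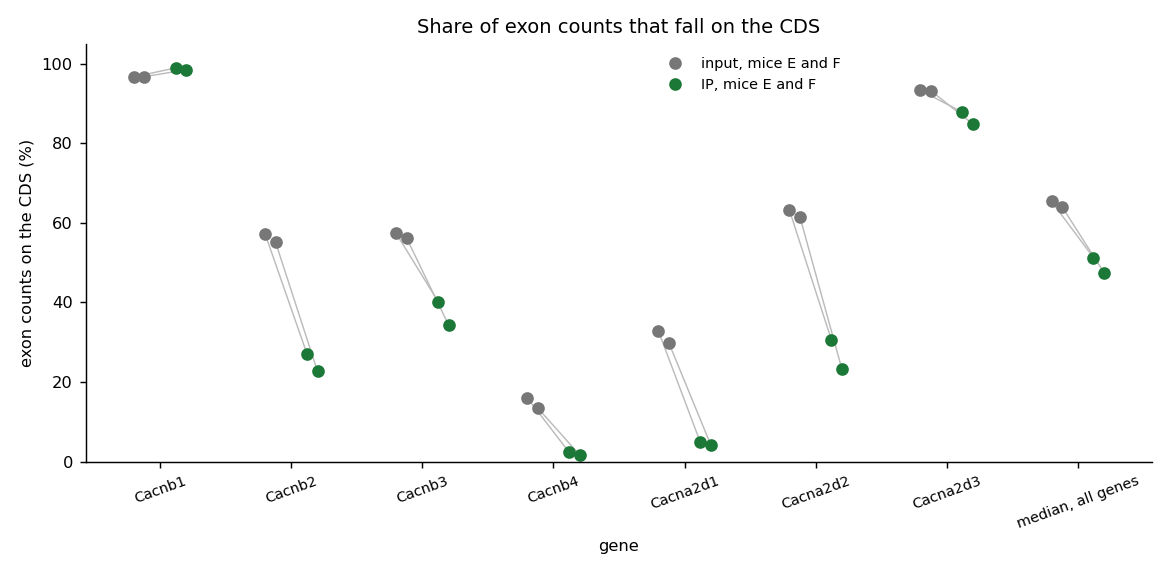
Percent of exon counts that fell on the CDS in the inputs and the IPs of mice E and F for each gene, and the median over 12574 genes, with a line joining the libraries of each mouse. The share fell in 6 of the 7 genes and in the median of all genes, and in Cacnb1 it rose by 2.29 and 1.76 percentage points.

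Other genes, listed by name as calcium channel subunits or as binding partners, gave values of the same range. Whether their products join the 7 subunits in a channel was not examined. Of the 10 pore-forming subunit genes listed, 8 were tested on CDS counts, 7 were lower in the IP and none was higher, with a median log2 change of −1.25 against −0.07 over all genes. Cacna1e, the pore of R-type channels, had the lowest value (−2.49 ± 0.14) and Cacna1g, a T-type pore, the highest (−0.28 ± 0.13, adjusted p = 0.0755). Exon counts gave 7 lower and 0 higher, with a median of −1.23. Outside the CDS 7 were tested, of which 3 were lower and 1 was higher (Cacna1a, 0.49), with a median of −0.40. Among the gamma subunit genes and Cacna2d4, 6 of 9 were tested, and 3 were higher and 3 lower, from Cacng5 (−1.98) to Cacng3 (1.08). Of 9 proteins known to bind beta subunits, 6 were tested and 4 were lower, from the scaffold Ahnak (−1.55) to the GTPase Rem2 (0.43, adjusted p = 0.215). Of 6 proteins known to bind alpha2delta subunits, 5 were tested and 4 were lower, with the lowest value in the thrombospondin Thbs4 (−2.16). Over all genes 36.5% were called higher and 39% lower on CDS counts, and 33.7% and 35.7% on exon counts. Outside the CDS the shares were 29.1% and 30.5%.

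Translation efficiency (TE) asks how many footprints a gene has for its amount of mRNA, and was computed as the footprint count over the RNA-Seq count of the same mouse, each divided by DESeq2 size factors. TE is a ratio within a gene, and its order among genes also depended on where RNA-Seq reads were counted, as given below. On CDS counts in untreated mice the auxiliary subunits covered nearly the whole range of the brain. The 5th and 95th percentiles of log2 TE over 10882 genes were −1.76 and 1.46, and Cacnb3 lay at the 4.62 percentile, Cacnb4 at the 96.0 percentile and Cacna2d1 at the 99.3 percentile. With RNA-Seq counted on exons, Cacnb3 lay at the 4.16 percentile, Cacnb4 at the 20.3 percentile and Cacna2d1 at the 93.0 percentile.

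Cacna2d1 had the highest TE. Mouse A gave 4769 footprints for 930 RNA-Seq counts and mouse B 2259 for 929. Its log2 TE was 2.51 in mouse A and 2.47 in mouse B, or 5.61-fold over a ratio of 1 in their mean. The log2 difference between footprints and RNA-Seq in edgeR was 2.53 ± 0.09 (adjusted p = 9.61e-13). Cacnb4 followed on CDS counts, with 1251 footprints for 466 RNA-Seq counts in mouse A and 635 for 483 in mouse B. Its log2 TE was 1.57 and 1.58, with a difference of 1.62 ± 0.09 (adjusted p = 1.39e-10). Both mice gave nearly the same value for each gene.

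At the other end, Cacnb3 gave 738 footprints for 2742 RNA-Seq counts in mouse A and 364 for 3099 in mouse B. Its log2 TE was −1.75 and −1.90, with an edgeR difference of −1.78 ± 0.09 (adjusted p = 5.89e-11). Cacnb1 had a log2 TE of −0.73 and −0.65 (difference −0.64 ± 0.08, adjusted p = 4.29e-06), and Cacnb2 of −0.58 and −0.59 (difference −0.54 ± 0.11, adjusted p = 0.000445). Cacnb1 and Cacnb2 were neighbours in this order whose 95% intervals, −0.82 to −0.46 and −0.77 to −0.30, overlapped.

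On CDS counts the remaining alpha2delta genes had a TE near the median of all genes. Cacna2d2 had a log2 TE of 0.30 and 0.04, with a difference of 0.20 ± 0.10 that did not pass the test (adjusted p = 0.0641). With the mouse as a replicate block the value was 0.22 and passed (adjusted p = 0.0134). Cacna2d3 had a log2 TE of −0.07 and 0.00 and a difference of 0.01 ± 0.08 (adjusted p = 0.914), and its interval (−0.15 to 0.17) overlapped that of Cacna2d2 (0.0017 to 0.41). In all, 2 of the 7 genes were called higher and 3 lower, against 36.5% and 37.3% of the 11797 genes tested.

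The direction for Cacnb4 and Cacnb1 depended on where RNA-Seq reads were counted. With RNA-Seq counted on exons and footprints on the CDS, an alternative chosen after the data had been seen, Cacnb4 had a log2 TE of −0.83 and −0.84 in mice A and B and an edgeR difference of −0.76 ± 0.07 (adjusted p = 1.13e-07), the opposite call. Cacnb1 had a log2 TE of 0.02 and 0.09, with a difference of 0.14 ± 0.08 that did not pass (adjusted p = 0.141). Cacna2d1 remained higher at 1.26 ± 0.08 (adjusted p = 1.69e-09), at the 93.0 percentile of log2 TE. Cacnb3 (−1.80 ± 0.08) and Cacnb2 (−0.66 ± 0.11) remained lower. Cacna2d2 (0.35 ± 0.09, adjusted p = 0.00277) and Cacna2d3 (0.71 ± 0.08, adjusted p = 9.26e-07) were then called higher, so that 3 genes were higher and 3 lower, against 36.1% and 38.2% of 12382 genes.

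The share of RNA-Seq exon reads on the CDS differed widely between the genes in mice A to D. It was 10.5% to 12.4% for Cacnb4 and 22.9% to 23.8% for Cacna2d1, which had the highest TE on CDS counts. It was 49.8% to 53.6% for Cacnb2, 54.8% to 58.9% for Cacnb3, 61.0% to 63.4% for Cacna2d2, 91.2% to 93.1% for Cacna2d3 and 96.3% to 97.1% for Cacnb1. The medians over all genes in these 4 libraries lay between 62.6% and 64.0%. Cacnb3, near that median, had almost the same TE with either table.

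**Figure D4:**
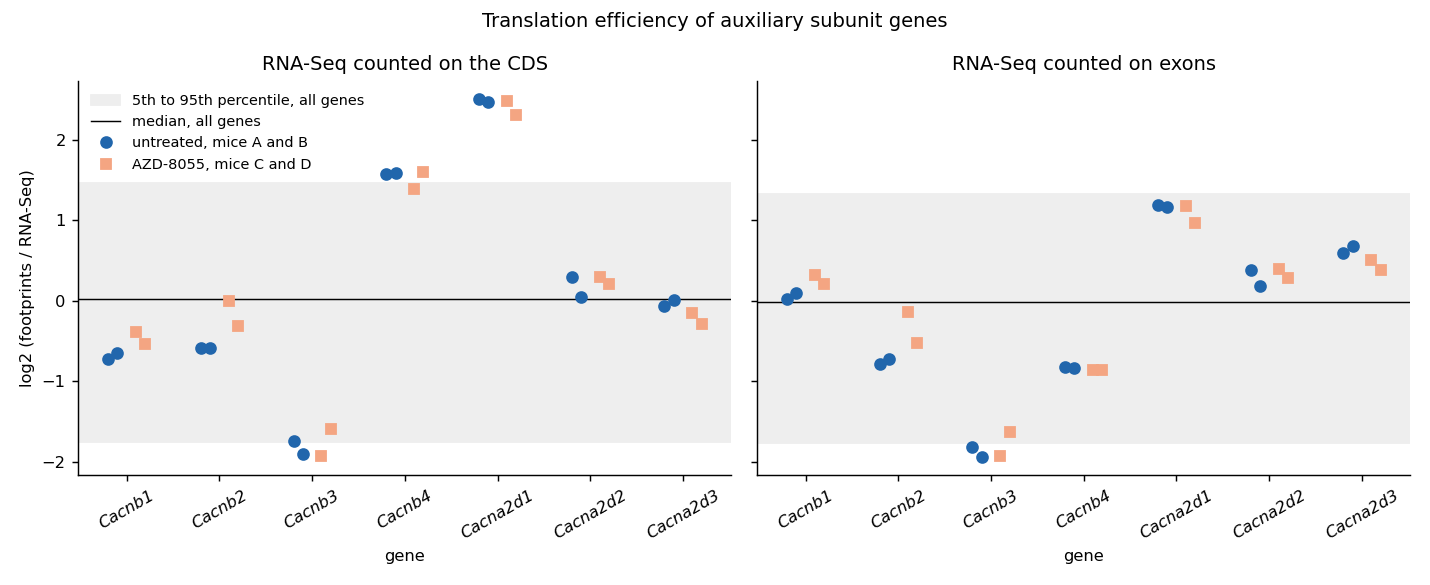
Log2 ratio of footprints to RNA-Seq for each gene in mice A and B (untreated, circles) and C and D (AZD-8055, squares), with RNA-Seq counted on the CDS (left) or on exons (right). The grey band spans the 5th to the 95th percentile of all genes and the line their median. Cacnb4 moves from 1.57 and 1.58 on the left to −0.83 and −0.84 on the right in the untreated mice, while Cacnb3 stays at the bottom in both.

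The pore-forming genes were spread over a similar range of TE. Of 8 tested, 2 were higher and 6 lower, with a median of −0.79 against −0.01 over all genes, from Cacna1g (−2.25) to Cacna1e (2.43). With exon counts for RNA-Seq, 3 were higher and 5 lower (median −0.48). Of the 6 gamma subunit genes tested, which were listed by name only, 2 were higher and 4 lower, from Cacng7 (−2.52) to Cacng5 (1.06). Of 7 beta-binding proteins, 2 were higher and 3 lower, from Ahnak (−1.98) to Rims4 (0.54). Of 6 alpha2delta-binding proteins, 4 were higher and 1 lower, from Thbs3 (−2.77) to Thbs1 (2.63). Over all genes 36.5% were called higher and 37.3% lower, and 36.1% and 38.2% with exon counts for RNA-Seq.

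AZD-8055 was given to ask which genes change in translation when mTOR is inhibited. None of the 7 genes passed the test in RNA-Seq, in footprints or in TE 1 h after the drug (edgeR, adjusted p under 0.05). At an unadjusted p under 0.05 there were 0, 2 and 1 of the 7 genes, against 8.24%, 12.8% and 6.75% of all genes tested in RNA-Seq, footprints and TE. With DESeq2 none was called either. Calls were rare among all genes, at 0.0575% higher and 0.0903% lower of 12182 genes in RNA-Seq, 0.0468% higher and 0.982% lower of 10695 genes in footprints and 0.0763% higher and 0.788% lower of 11797 genes in TE. Rpl22, a ribosomal protein gene and the one that carries the tag, fell by 1.15 in footprints and by 1.26 in TE on the log2 scale in the same libraries.

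The gene with the largest difference among the 7 was Cacnb2. It had 32.8 and 31.4 CPM of footprints in mice A and B and 47.1 and 39.1 CPM in mice C and D, from 304, 143, 165 and 186 counts. Both treated mice lay above both untreated mice, as they also did for Cacnb1, Cacnb3, Cacnb4 and Cacna2d2, but not for Cacna2d1 and Cacna2d3. For Cacnb4 the margin was slight, with 139.5 CPM in mouse B and 139.8 CPM in mouse C. The share of all genes with such a separation was not computed, so that no shared rise is read from it. The log2 footprint change of Cacnb2 was 0.40 ± 0.14 (95% interval 0.10 to 0.70, adjusted p = 0.276 in edgeR). Its TE change was 0.42 ± 0.16 (95% interval 0.08 to 0.76, adjusted p = 0.558), while its RNA-Seq change was −0.04 ± 0.09. Without mouse D the footprint change was 0.55 (adjusted p = 0.0418 in edgeR), a fit in which mouse C alone stood for the drug and was assumed to vary like mice A and B.

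Cacnb1 had 116 and 111 CPM of footprints in the untreated mice and 139 and 127 CPM in the treated mice. Its log2 footprint change was 0.21 ± 0.08 (95% interval 0.02 to 0.39, adjusted p = 0.341). The footprint changes of Cacnb3 (0.20 ± 0.09, adjusted p = 0.402) and Cacna2d2 (0.18 ± 0.09, adjusted p = 0.41) were of the same size. Cacnb4 (0.03 ± 0.08), Cacna2d1 (−0.06 ± 0.08) and Cacna2d3 (−0.03 ± 0.08) were nearer to 0, and the 95% interval of Cacna2d1 was −0.24 to 0.12. In RNA-Seq the 7 changes lay between −0.04 (Cacnb2) and 0.13 (Cacna2d3), and the widest of their 95% intervals was that of Cacnb4, from −0.12 to 0.30.

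**Figure D5:**
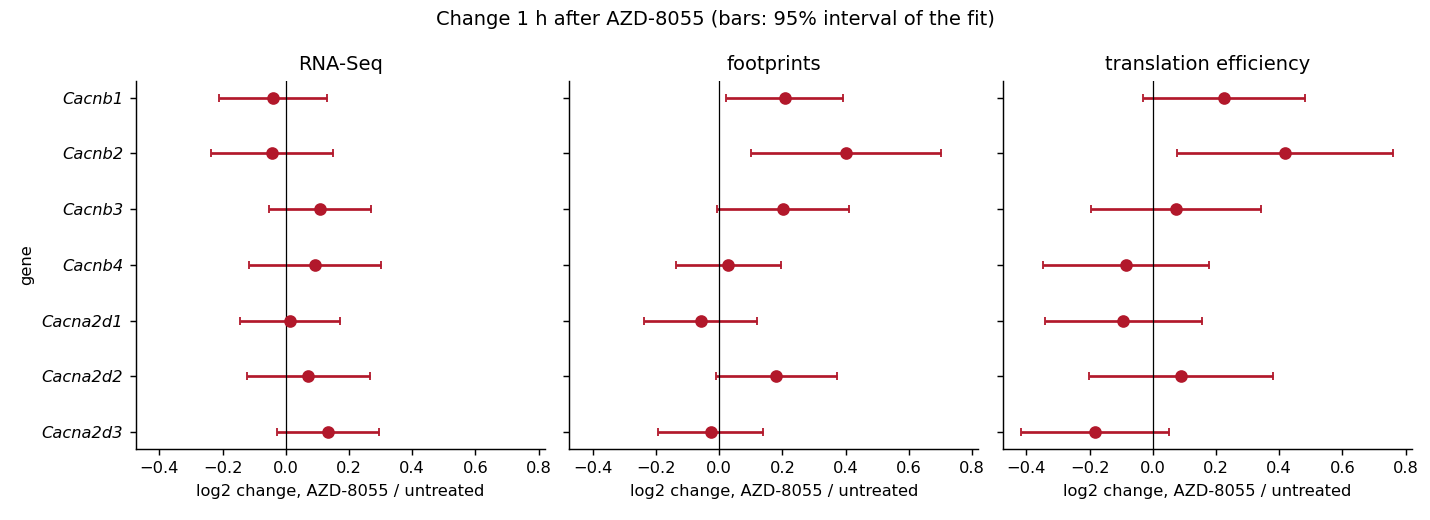
Log2 change between mice treated with AZD-8055 and untreated mice (2 mice each) in RNA-Seq, in footprints and in TE for each gene, with the 95% interval of the edgeR fit. The intervals of Cacnb1 and Cacnb2 in footprints and of Cacnb2 in TE lie above 0 before adjustment, and the adjusted p-values of all 7 genes were 0.276 or higher.

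Among the other genes listed, 1 of 8 pore-forming genes passed in TE, Cacna1e, which rose by 0.50 ± 0.11 (adjusted p = 0.0333). The median TE change of these 8 genes was 0.21 against −0.01 over all genes, and none passed in RNA-Seq or footprints. Ahnak was the only beta-binding gene to pass, with an RNA-Seq change of −0.67 ± 0.08 (adjusted p = 0.00157), while the lowest value of that list, Rrad at −0.96 ± 0.28, did not pass (adjusted p = 0.294). No alpha2delta-binding gene and no other gene listed as an auxiliary subunit passed in RNA-Seq, footprints or TE.

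The pattern over the 12 libraries was compared between genes by Pearson's r of log2 CPM of CDS counts. It is a description over 12 libraries that share kinds, depth and mice, and it holds for CDS counts only. With exon counts, the IP decreases of Cacnb4 and Cacna2d1 did not pass in the main fit and the TE of Cacnb4 changed sign, as given above. Cacnb4 and Cacna2d1 were alike (r = 0.983), and both were opposed to Cacnb3 (r = −0.892 and −0.956) and Cacnb1 (r = −0.938 and −0.932). Cacnb1 and Cacnb3 had r = 0.904. Cacna2d3 followed none of the other 6 closely, with r from −0.600 to 0.453. Among 12014 genes, the single most similar gene was Blnk for Cacnb1 (r = 0.988), Git2 for Cacnb2 (r = 0.949), Kcnh3 for Cacnb3 (r = 0.997), Erbb4 for Cacnb4 (r = 0.998), Astn1 for Cacna2d1 (r = 0.999), Hepacam for Cacna2d2 (r = 0.999) and Vrk1 for Cacna2d3 (r = 0.863).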

How the data were processed

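The authors deposited whole-number read counts per gene symbol without normalization, in a CDS table of 12 libraries and an exon table of the 8 made by RNA-Seq. The submitters' processing notes name the build mm10 and the tools Bowtie2, TopHat2 and HTSeq, and the annotation is not given in the sources used here. Positions are from a RefSeq table of GRCm38.p6, the same primary assembly. In the CDS table, 27 entries had symbols turned into dates (0.35% of counts).

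Counts were tested with edgeR 4.0.16 in R 4.3.3 (TMM, quasi-likelihood test, Benjamini-Hochberg adjustment over all genes tested, threshold 0.05, no fold limit) keeping genes whose counts averaged at least 37 over the libraries of a fit. The TE fits held the 8 libraries of mice A to D, the IP fits the 4 libraries of mice E and F, and the RNA-Seq and footprint fits 4 libraries each. SE and 95% intervals come from these fits. Per-mouse ratios used DESeq2 1.42.0 size factors, and TE percentiles genes with at least 75 counts of each kind over both mice. Exon counts outside the CDS are exon minus CDS counts, without the 457 genes for which this was negative. Tables and figures were made in Python 3.11.15.

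Mouse letters pair the libraries, which come from the same animals. The main fits held no term for the mouse and treated these libraries as independent, so that SE and intervals are not those of differences within a mouse. Deviations between mice correlated across genes at 0.254 (A and B), 0.239 (C and D) and 0.464 (E and F). The fits were tested on simulated counts, in which false calls ran above the nominal rate in every comparison except TE change. The genes and lists were chosen with earlier results of these data known. Named genes are, apart from an item not reported here, all 7, the highest and lowest of each list, the gene most similar to each, the tagged gene Rpl22 and single genes that make up a small count. Alternatives were DESeq2, other normalizations and filters, a fold limit, the mouse as a block, exon counts and leaving out each mouse. No sequences are printed, and lengths of coding sequences were not used here.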

Additional observations from a re-analysis of the deposited data

How the results depend on the processing

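Some results held in direction and call under every normalization, filter, tool and table tried, apart from the limit of 2-fold. They were Cacnb3 and Cacna2d2 in RiboTag IP, and Cacnb3, Cacnb2 and Cacna2d1 in TE. Their direction also held without any 1 mouse. Under the limit of 2-fold, the IP value of Cacnb3 (0.90) and the TE value of Cacnb2 (−0.54) fall short. With that limit 0 genes were higher in the IP in place of 3, and 1 was lower in TE in place of 3. On exon counts 1 gene was lower in the IP in place of 4, and 2 with exon counts and the mouse as a replicate block. Signs turned in the IP for Cacna2d3 under total counts (−0.037), for Cacnb2 on exon counts (0.0019, or 0.0015 with the replicate block) and outside the CDS (0.28), and for Cacnb1 outside the CDS (−1.50). In TE they turned for Cacnb1 (0.14) and Cacnb4 (−0.76) with exon counts for RNA-Seq, and for Cacna2d3, which was near 0 and not called, under total counts (−0.13), without a filter (−0.08), with the higher filter (−0.0090) and without mouse B (−0.05). The cause was not tested beyond the counts on and off the CDS. Leaving out 1 mouse gave 0 to 1 genes with higher footprints after AZD-8055, the 1 being Cacnb2 without mouse D, with mouse C alone in its group. Where a mouse was left out, the lone library of a group was assumed to vary like the others, and for the IP the spread came from the RNA-Seq libraries of mice A to D. Cacna2d2 was called higher in TE with the replicate block (0.22), with DESeq2-style factors (0.22) and without mouse D (0.22), and the block changed no other call on CDS counts. The block could not be fitted within RNA-Seq or footprints alone, since each mouse had 1 treatment. The TE ratios shifted by −0.10 under total counts. With 2 mice per group, small changes after AZD-8055 were not detectable, Cacnb2 had as few as 143 footprints in a library, and calls near the threshold carry the excess of false calls seen in simulated counts.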
